A study of Mus musculus with 6 samples.

Results

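The genes described here are 33 transcripts typical of pancreatic acinar cells, measured in RNA of isolated islets of Langerhans, and serve to read how much exocrine material each islet preparation carried. A gene was included when at least 1 probe set (the group of array probes that reads a transcript) carried its symbol and no other, and the brightest such probe set, by its mean of all 6 arrays, represented it. This left 28 of the 33 genes, among 18193 genes on the array. Pnlip, Amy2a5, Amy2b, Try4 and Try5 had no such probe set and were not analysed here, so the amylases are not represented.

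Acinar cells make up most of the exocrine pancreas and secrete digestive enzymes, largely as inactive zymogens stored in granules. Trypsinogens, chymotrypsinogens, elastases and carboxypeptidases digest protein, lipases with their cofactor colipase digest fat, and the transcription factors Ptf1a, Rbpjl, Nr5a2 and Bhlha15 keep the cells in the acinar state. Islets are surrounded by this tissue, and enzyme transcripts are so abundant in acinar cells that a few attached cells or their free RNA can be read in an islet extract. In such bulk samples, fewer acinar cells and less acinar RNA per cell cannot be told apart.

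Tead1KO samples were islets of mice with a knockout of the transcription factor Tead1 restricted to beta cells (3 arrays), and Flox samples were islets of flox mice (3 arrays). All mice were C57Bl6 males aged 12 weeks. The labels name neither a Cre driver nor the exact alleles. The series' text counts 3 flox mice and 3 knockouts, but no label ties an array to a single mouse, so p-values measure only the spread among these arrays, part of which may be technical. Islets of both groups were freed from the pancreas with collagenase, enriched by density and then picked by hand. Tead1 itself read 6.72, 7.49 and 5.95 on the Tead1KO arrays, against 7.22, 6.99 and 7.40 on the Flox arrays (log2 difference -0.49, SE 0.36, limma adjusted p = 0.774), with the values here and below in the order of replicates 1, 2 and 3. Its Tead1KO replicate 2 lay above every Flox array, and it is unknown here whether this probe set reads the deleted stretch, so the value does not check the labels.

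All values are log2 signals, so a difference of 1 is a doubling. Probe sets for bacterial transcripts that read near the bottom of the scale on every array lay between 2.87 and 4.70, and this range served as background. The islet endocrine markers were bright on all arrays: Gcg, glucagon, averaged 14.74 in both groups and Ins2, insulin, 15.69 in both. Ins2 equalled the highest signal of every array and Gcg lay near it, so these equal means do not show equal endocrine content. The arrays differed in technical readings. Spiked-in bacterial hybridization controls averaged 12.09, 10.87 and 13.23 on the Tead1KO arrays, against 11.89, 10.96 and 10.60 on the Flox arrays. Tead1KO replicate 3 also had the narrowest interquartile range of all probe sets, 2.65 against 2.99 to 3.32 on the other arrays.

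Promoters of the 3 brightest genes with full values and a RefSeq promoter entry are shown first. The E-box CACCTG and the RBPJ-type letters TGGGAA resemble parts of the site bound by the Ptf1a and Rbpjl complex. Any part of such sites in the variation between arrays was not tested. Each line gives the 250 bases before the transcription start (RefSeq, GRCm38.p6, minus-strand genes, read 5′ to 3′ along the gene), with matches to the searched motifs in capitals. The windows are chr8:105933863-105934112 for Ctrl, a chymotrypsin-like protease, chr4:137430521-137430770 for Cela3b, an elastase, and chr14:51146768-51147017 for Rnase1, the pancreatic ribonuclease.
Ctrl: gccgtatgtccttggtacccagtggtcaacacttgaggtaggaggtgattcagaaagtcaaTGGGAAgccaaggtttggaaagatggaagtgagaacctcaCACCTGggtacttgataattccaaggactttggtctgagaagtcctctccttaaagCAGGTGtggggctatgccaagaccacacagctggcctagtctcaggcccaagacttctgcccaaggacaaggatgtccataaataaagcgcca
Cela3b: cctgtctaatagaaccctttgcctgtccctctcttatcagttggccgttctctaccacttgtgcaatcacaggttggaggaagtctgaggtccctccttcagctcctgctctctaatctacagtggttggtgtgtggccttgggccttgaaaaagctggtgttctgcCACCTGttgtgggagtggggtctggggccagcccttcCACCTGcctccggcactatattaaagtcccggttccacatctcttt
Rnase1: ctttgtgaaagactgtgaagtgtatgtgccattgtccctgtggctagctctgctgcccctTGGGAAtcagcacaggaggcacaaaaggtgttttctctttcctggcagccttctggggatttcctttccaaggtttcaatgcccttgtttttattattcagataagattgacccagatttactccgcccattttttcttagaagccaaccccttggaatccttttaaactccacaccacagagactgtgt

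Both strands were searched for CACCTG, for the further E-box CATATG, for TGGGAA, for the Nr5a2-type letters AAGGTCA and for the TATA box letters TATAAA. The Ctrl window held CACCTG on each strand and 1 TGGGAA, the Cela3b window held 2 CACCTG, and the Rnase1 window held 1 TGGGAA. Of the 22 measured acinar genes with a promoter entry, 13 held CACCTG and 13 held TGGGAA, against 17.2% and 21.6% of all 32851 promoter windows of that length. CATATG occurred in 0 of the 22 (3.46% of all windows), AAGGTCA in 3 (4.08%) and TATAAA in 4 (12.4%). A gene was counted when any of its windows held the motif, while the percentages count single windows. A gene with several windows thus had more chances to be counted, and the 2 measures are not fully alike. A match is a run of letters and not a shown binding site.

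No acinar gene passed the test between Tead1KO and Flox islets, while most of them differed more than 2-fold between arrays of the same group. Of the 28 genes, 0 were called with limma (Benjamini-Hochberg adjusted p under 0.05 over all genes, smallest adjusted p = 0.786), against 0.517% of all genes called (0.335% higher and 0.181% lower in Tead1KO), and 0 had an unadjusted p under 0.05, as 7.41% of all genes had. The median difference was -0.16 on the log2 scale, beside -0.0074 for all genes. The median range within a group was 1.90 among Tead1KO arrays and 2.15 among Flox arrays, against 0.49 and 0.26 for all genes. Within both groups the range exceeded 1, a doubling, in 23 of the 28 genes, against 0.704% of all genes, and the exceptions were Klk1 and the 4 transcription factors. The range over all 6 arrays exceeded 2 in 18 of the 28 genes, against 1.84% of all genes. For all 28 genes the range within each group was larger than the difference between the group means.

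**Figure D1:**
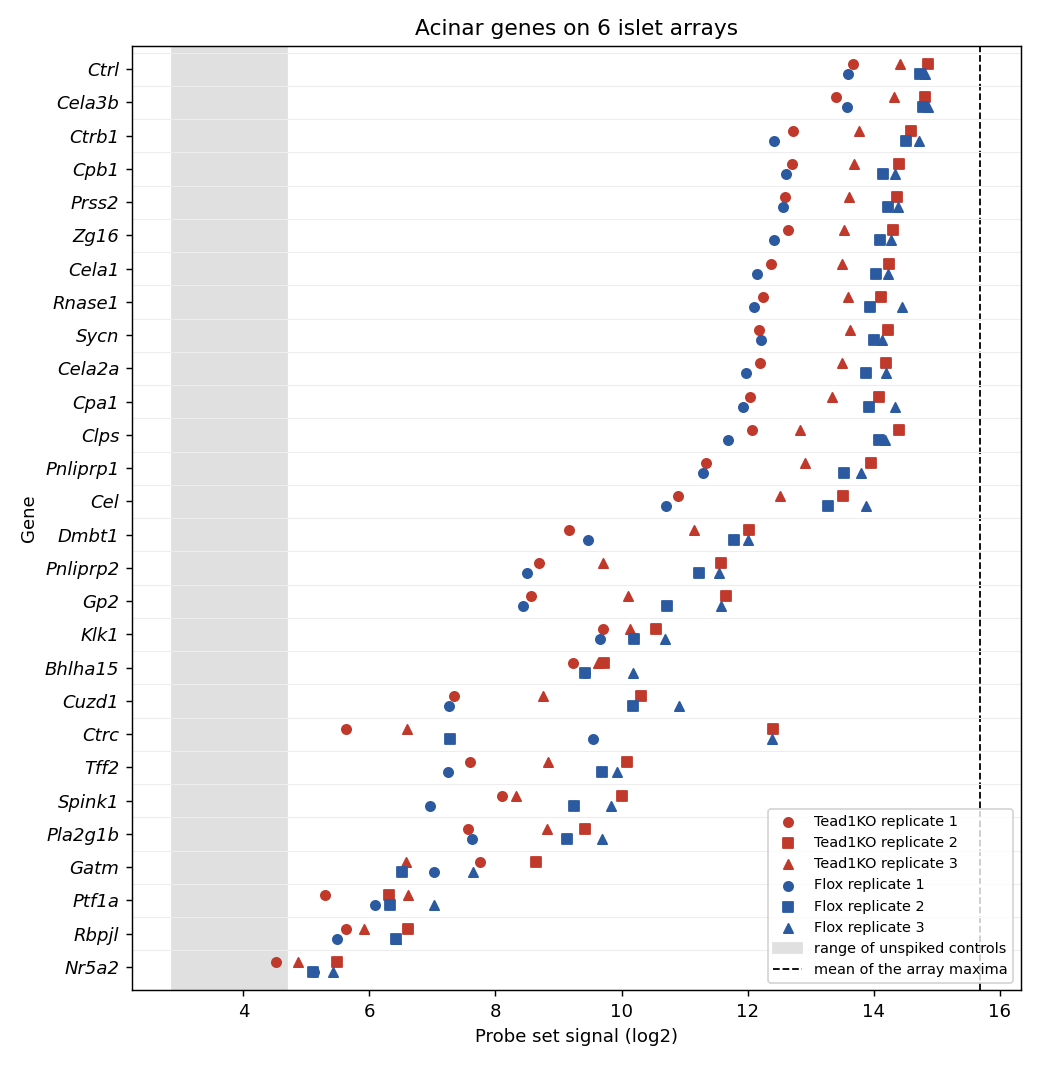
Signal of each acinar gene (log2, x axis) on the 6 arrays, 1 point per array, with Tead1KO in red and Flox in blue and the symbol giving the replicate; the grey band is the background range 2.87 to 4.70 and the dashed line the mean of the array maxima. For most genes both replicate 1 arrays sit at the left, Tead1KO replicate 3 in the middle and the other 3 arrays at the right, and the groups overlap for every gene.

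Among the proteases, Ctrl, whose product cleaves much like chymotrypsin, read 13.67, 14.86 and 14.43 in Tead1KO, against 13.59, 14.73 and 14.82 in Flox (log2 difference -0.064, SE 0.38, adjusted p = 0.970). Cela3b read 13.40, 14.81 and 14.33 in Tead1KO, against 13.58, 14.78 and 14.86 in Flox (difference -0.22, SE 0.42, adjusted p = 0.892). Replicate 1 was the lowest array of its group in both cases, and the groups overlapped. Ctrb1 (a chymotrypsinogen), Cpb1 and Cpa1 (carboxypeptidases), Prss2 (a trypsinogen), and the elastases Cela1 and Cela2a had the same order of arrays as Ctrl and Cela3b, replicate 1 of both groups lowest and Tead1KO replicate 3 next, with ranges between 1.80 and 2.41. Klk1, tissue kallikrein, had a smaller range of 1.04.

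Ctrc, the mouse counterpart of the gene for chymotrypsin C, stood apart from the other proteases. RefSeq lists it as a transcribed pseudogene in this C57BL/6-based assembly and the other 27 genes as protein coding, so its signal is described here as that of a transcript and not of an enzyme. It read 5.63, 12.40 and 6.60 in Tead1KO, against 9.55, 7.28 and 12.39 in Flox. Its range of 6.77 was the largest of all 18193 genes and equals a 109-fold spread, with a high and a low array in both groups. The group difference of -1.53 had an SE of 1.83 (adjusted p = 0.835) and was -3.63 without Tead1KO replicate 2 and -0.21 without Flox replicate 3. Unlike the other proteases, Ctrc was low in Flox replicate 2. It was read by a single probe set, as were Ctrl, Cela1, Cela2a, Cpa1, Cpb1 and Ctrb1.

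The fat-digesting enzymes varied more between arrays than the brightest proteases. Clps, colipase, which anchors pancreatic lipase to fat droplets, read 12.06, 14.40 and 12.83 in Tead1KO, against 11.69, 14.09 and 14.18 in Flox (difference -0.22, SE 0.76, adjusted p = 0.943). Pnliprp1, a lipase-related protein, read 11.34, 13.96 and 12.90 in Tead1KO, against 11.30, 13.53 and 13.80 in Flox (difference -0.14, SE 0.78, adjusted p = 0.968). Both showed the low replicate 1 arrays in each group. Cel, the bile salt-activated lipase, read 10.90, 13.52 and 12.51 in Tead1KO, against 10.70, 13.28 and 13.88 in Flox (difference -0.31, SE 0.88, adjusted p = 0.928). Pnliprp2, which also splits galactolipids, read 8.68, 11.58 and 9.71 in Tead1KO, against 8.50, 11.23 and 11.55 in Flox (difference -0.43, SE 0.92, adjusted p = 0.904). The spread over the 6 arrays was 9.09-fold for Cel and 8.44-fold for Pnliprp2, and the lowest and the highest array of Cel were both Flox arrays. Pla2g1b, the secreted pancreatic phospholipase, had a range of 2.14.

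Granule proteins and other secreted products followed the same arrays. Zg16, a lectin of the zymogen granule, read 12.63, 14.30 and 13.53 in Tead1KO, against 12.42, 14.10 and 14.27 in Flox (difference -0.11, SE 0.55, adjusted p = 0.963). Rnase1 read 12.25, 14.11 and 13.60 in Tead1KO, against 12.10, 13.95 and 14.44 in Flox (difference -0.18, SE 0.65, adjusted p = 0.945). Gp2, a membrane glycoprotein of the granule, read 8.57, 11.66 and 10.10 in Tead1KO, against 8.44, 10.72 and 11.58 in Flox (difference -0.14, SE 0.92, adjusted p = 0.972). In each of these genes the lowest array of either group was replicate 1, and the groups overlapped. Cuzd1, another granule protein, read 7.34, 10.31 and 8.76 in Tead1KO, against 7.27, 10.19 and 10.91 in Flox (difference -0.65, 95% interval -2.97 to 1.66, adjusted p = 0.868). Its 12.4-fold spread was the widest of the granule group. Spink1, the inhibitor that protects acinar cells from trypsin, read 8.10, 10.01 and 8.32 in Tead1KO, against 6.96, 9.24 and 9.83 in Flox (difference 0.13, SE 0.76, adjusted p = 0.968). It was 1 of 2 acinar genes with a higher Tead1KO mean, and its groups overlapped too. Sycn (syncollin), Dmbt1 and Tff2 (a trefoil peptide) had ranges of 2.05, 2.86 and 2.84 in that order.

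The acinar transcription factors varied less. Bhlha15, which drives secretory architecture, read 9.23, 9.73 and 9.62 in Tead1KO, against 9.42, 9.43 and 10.18 in Flox (difference -0.15, SE 0.25, adjusted p = 0.874). Ptf1a read 5.30, 6.31 and 6.61 in Tead1KO, against 6.09, 6.33 and 7.02 in Flox (difference -0.41, SE 0.37, adjusted p = 0.795). Rbpjl and Nr5a2 had ranges of 1.12 and 0.97, and the Nr5a2 value of Tead1KO replicate 1, 4.52, lay within background. These 4 factors had a median range of 1.05, against 1.96 for the 10 proteases, 2.71 for the 5 lipases and cofactors and 2.85 for the 8 granule and other secreted proteins. Ptf1a, Rbpjl and Nr5a2 were also the 3 dimmest of the 28 genes, with means between 5.09 and 6.28, and the part of low signal in the smaller range was not tested.

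Gatm, which makes the creatine precursor and is also expressed outside the exocrine pancreas, did not follow the enzymes. It read 7.76, 8.64 and 6.58 in Tead1KO, against 7.03, 6.51 and 7.64 in Flox. Its lowest array was Flox replicate 2, where most enzymes were high. Gatm had the smallest p of the 28 genes (unadjusted p = 0.263 with limma).

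Most acinar genes were high or low on the same arrays. The acinar level of an array, the median over the 28 genes of the signal minus the gene's mean, came to -1.10, 0.82 and 0.0049 for Tead1KO, against -1.23, 0.55 and 0.90 for Flox. The level averaged -0.090 ± 0.96 in Tead1KO and 0.073 ± 1.14 in Flox (SD, n = 3 each). It spanned 1.92 within Tead1KO, a 3.78-fold spread, and 2.13 within Flox, a 4.37-fold spread. Each group held an array well below the mean level and at least 1 above it. The lowest arrays still read acinar transcripts brightly, with Ctrl at 13.67 on Tead1KO replicate 1 and 13.59 on Flox replicate 1.

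The order of arrays was shared by most genes. In 25 of the 28 genes both replicate 1 arrays lay below the other 4, against 3.78% of all genes, and in 23 Tead1KO replicate 3 came next, below the remaining 3 arrays, against 1.22% of all genes. These orders were picked after the values were seen. The 3 exceptions to the first were Ctrc, Gatm and Nr5a2. Tead1KO replicate 2 exceeded Tead1KO replicate 1 in 28 of 28 genes (48.8% of all genes; median 1.88, or 3.67-fold), and Flox replicate 3 exceeded Flox replicate 1 in 28 of 28 (51.7% of all genes; median 2.15, or 4.42-fold), while the corresponding medians over all genes were -0.0090 and 0.012.

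**Figure D2:**
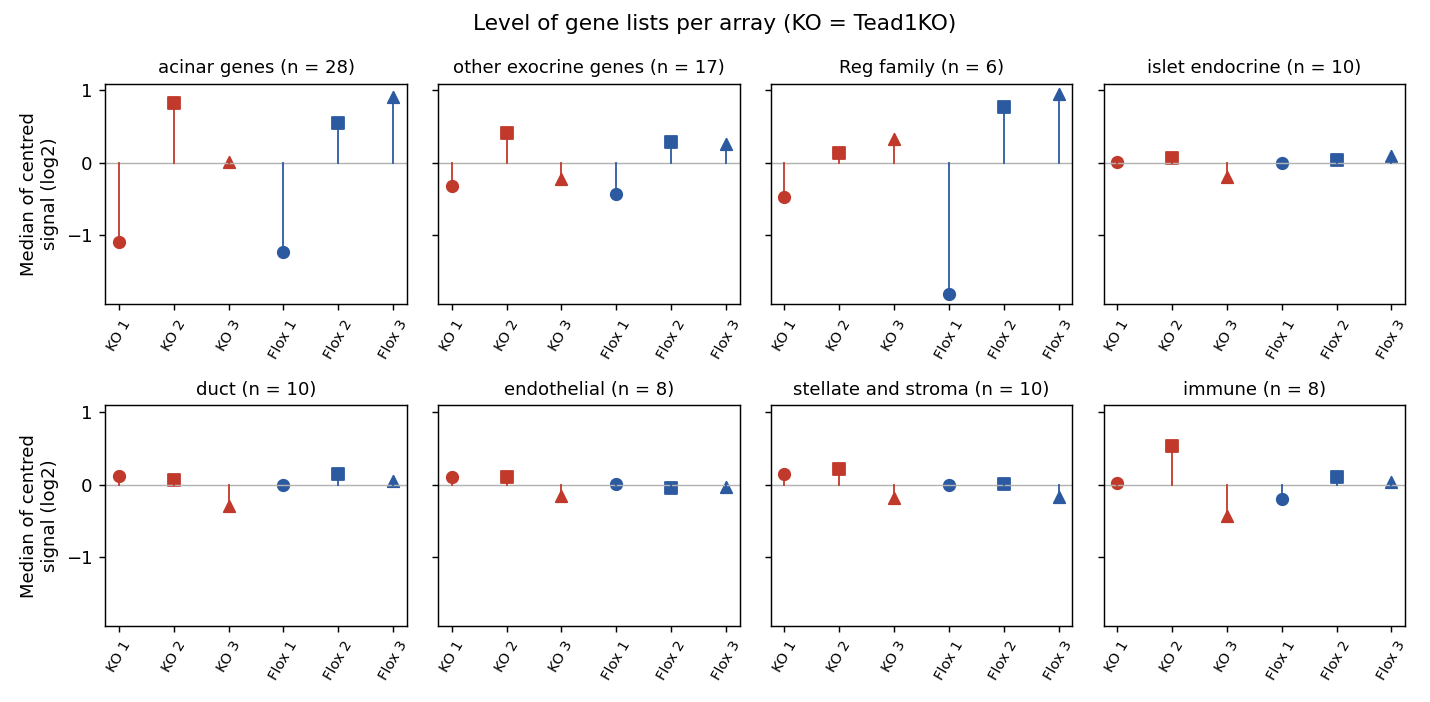
Median of centred log2 signal (y axis) on each array for the acinar genes and 7 other gene lists; red marks Tead1KO (KO) and blue Flox. The acinar level reaches -1.10 and -1.23 on the replicate 1 arrays of both groups. The levels of the islet endocrine, duct, endothelial and stellate lists span at most 0.43, and that of the immune list spans 0.97.

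Other exocrine genes outside the list moved with it in part. Of 21 such genes, 17 were measured, and 0 were called in either direction, against 0.517% of all genes. An unadjusted limma p under 0.05 was found for 2 of the 17, as for 7.41% of all genes, and the median difference was -0.019. In 6 of the 17 both replicate 1 arrays were the lowest, against 3.78% of all genes: Prss3, Serpini2, Erp27, Pdia2, Aqp12 and Amy1. Serpini2, a pancreatic serpin, read 6.12, 9.03 and 8.04 in Tead1KO, against 5.81, 8.50 and 9.32 in Flox. Pdia2, a pancreatic disulfide isomerase, read 8.75, 11.23 and 10.52 in Tead1KO, against 8.44, 10.73 and 11.39 in Flox. Both repeated the array order of the acinar enzymes. The smallest p-values in the list belonged to Foxp2 (difference 1.14, SE 0.22, adjusted p = 0.108) and Rab27b, a granule docking GTPase (difference 0.71, SE 0.23, adjusted p = 0.419), neither with that order.

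Of the 6 Reg genes, which encode secreted lectin-like proteins, 3 were lowest on both replicate 1 arrays, against 3.78% of all genes: Reg1, Reg2 and Reg3d. Reg3b, Reg3g and Reg3a did not have that order, and within Tead1KO Reg3b and Reg3g were highest on replicate 1. Reg3a lay within background on all 6 arrays, so its order could not be read, and Reg3g, with a mean of 4.87, was close to background. Reg1 read 10.59, 12.67 and 12.29 in Tead1KO, against 10.23, 12.71 and 13.14 in Flox, and Reg2 read 7.84, 9.92 and 10.35 in Tead1KO, against 7.64, 10.93 and 10.62 in Flox. Reg1 kept the full order of arrays, while Reg2 was higher in Tead1KO replicate 3 than in Tead1KO replicate 2. The 6 Reg genes together had a level between -1.81 (Flox replicate 1) and 0.95 (Flox replicate 3).

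The levels of marker lists for other cell types spanned less between arrays than the acinar level, with no test of that difference. The level of 10 measured duct markers ranged over 0.43 between arrays, that of 8 endothelial markers over 0.27 and that of 10 stellate and stromal markers over 0.40. It ranged over 0.97 for 8 immune markers and 1.04 for 8 beta cell genes. A level is a median over genes, in which opposite movements can cancel. Single genes had median ranges of 0.64 (duct), 0.40 (endothelial), 1.03 (stromal), 1.12 (immune) and 1.11 (beta cell), against 2.18 for the acinar genes and 0.63 for all genes. The level of the 10 measured islet endocrine genes ranged over 0.29, but 7 of them had means within 2 log2 units of the mean of the array maxima, where all genes range little, so this span does not show how far endocrine content varied. In all these lists Tead1KO replicate 3 was the lowest array, and no list had its lowest values on the replicate 1 arrays. Of the endocrine, duct, endothelial, stromal and immune markers 0 were called with limma, against 0.517% of all genes. An unadjusted limma p under 0.05 was found for 2 endocrine, 0 duct, 0 endothelial, 4 stromal and 1 immune gene, as for 7.41% of all genes. Among endocrine genes the smallest p-values belonged to the prohormone convertase Pcsk1 (difference -0.63, adjusted p = 0.071) and the granule protein Chga (difference -0.26, adjusted p = 0.590). The smallest p-values among stromal genes belonged to Dcn, a matrix proteoglycan (difference 1.11, adjusted p = 0.200), and Acta2, smooth muscle actin (difference -0.99, adjusted p = 0.294). Among duct genes they belonged to Sox9 (difference -0.19, adjusted p = 0.772) and Krt8 (difference -0.26, adjusted p = 0.775), and among immune genes to the complement gene C1qa (difference 1.08, adjusted p = 0.518). Of 8 measured beta cell genes 0 were called and 4 had an unadjusted p under 0.05, first among them Ucn3 (difference -0.95, adjusted p = 0.056) and the transcription factor Nkx6-1 (difference -0.95, adjusted p = 0.064). The groups did not overlap for Pcsk1, Chga, Dcn, Acta2, Sox9, Ucn3 and Nkx6-1, and overlapped for Krt8 and C1qa. These genes were named for their small p-values, and 13.1% of all genes had groups that did not overlap. The 10 endocrine genes summed to between 139 and 142 log2 units on every array, and the mean over the 6 arrays of 0 of them, and of 0 endothelial or immune markers, lay within background. The leukocyte marker Ptprc was close to it, at 4.75, 5.55 and 4.30 in Tead1KO, against 4.72, 4.66 and 4.91 in Flox. Cftr, a defining duct gene, lay within background on all arrays, and Pdgfra, a stromal marker, had a mean within it.

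The acinar level was also set beside the technical readings. The 3 arrays with the highest hybridization controls, Tead1KO replicates 3 and 1 and Flox replicate 1, were those with the 3 lowest acinar levels, although Tead1KO replicate 3, with the highest control signal, did not have the lowest level. The same 3 arrays had the highest 18S ribosomal RNA signals, which were 12.01, 11.18 and 12.90 in Tead1KO, against 11.88, 11.08 and 11.21 in Flox. The part of these readings in the acinar level was not tested beyond the covariate fit that follows. With the control signal as a covariate, the median difference of the acinar genes was 0.45. In that fit 25 of 28 lay higher in Tead1KO, against 26 of 28 lower without it. Of the acinar genes 0 were called in either fit, while 242 of all genes were called with the covariate and 94 without it. With the covariate 2 acinar genes had an unadjusted limma p under 0.05 (smallest adjusted p = 0.132). Without it 0 had one (smallest adjusted p = 0.786).

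**Figure D3:**
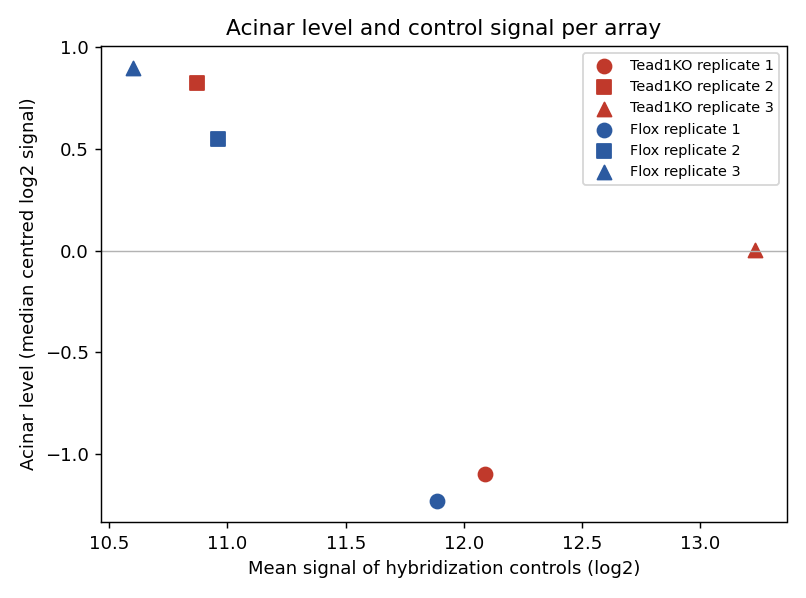
Acinar level (median centred log2 signal, y axis) against the mean log2 signal of the hybridization controls (x axis), 1 point per array, Tead1KO in red and Flox in blue. The 3 arrays with controls under 11 have levels of 0.55 to 0.90, and the 3 with higher controls have levels of -1.23 to 0.0049.

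The group difference was small beside what 3 arrays a group can resolve. Of the 28 genes, 26 lay lower in Tead1KO, as 51.1% of all genes did, but the genes share the arrays that set this direction. The median difference was 0.31 without Tead1KO replicate 1, 0.072 without Flox replicate 2 and 0.22 without Flox replicate 3, against -0.77 without Flox replicate 1, -0.56 without Tead1KO replicate 2 and -0.22 without Tead1KO replicate 3. The 95% interval of the difference reached a doubling or halving for 23 of 28 genes, and for 20 it included both. For Clps it ran from -1.98 to 1.53. A share of 1.08% (median over the genes) of the variation between the 6 arrays lay between the groups, against 16.4% for all genes. The arrays of the groups did not separate for any of the 28 genes, against 13.1% of all genes whose groups did not overlap.

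**Figure D4:**
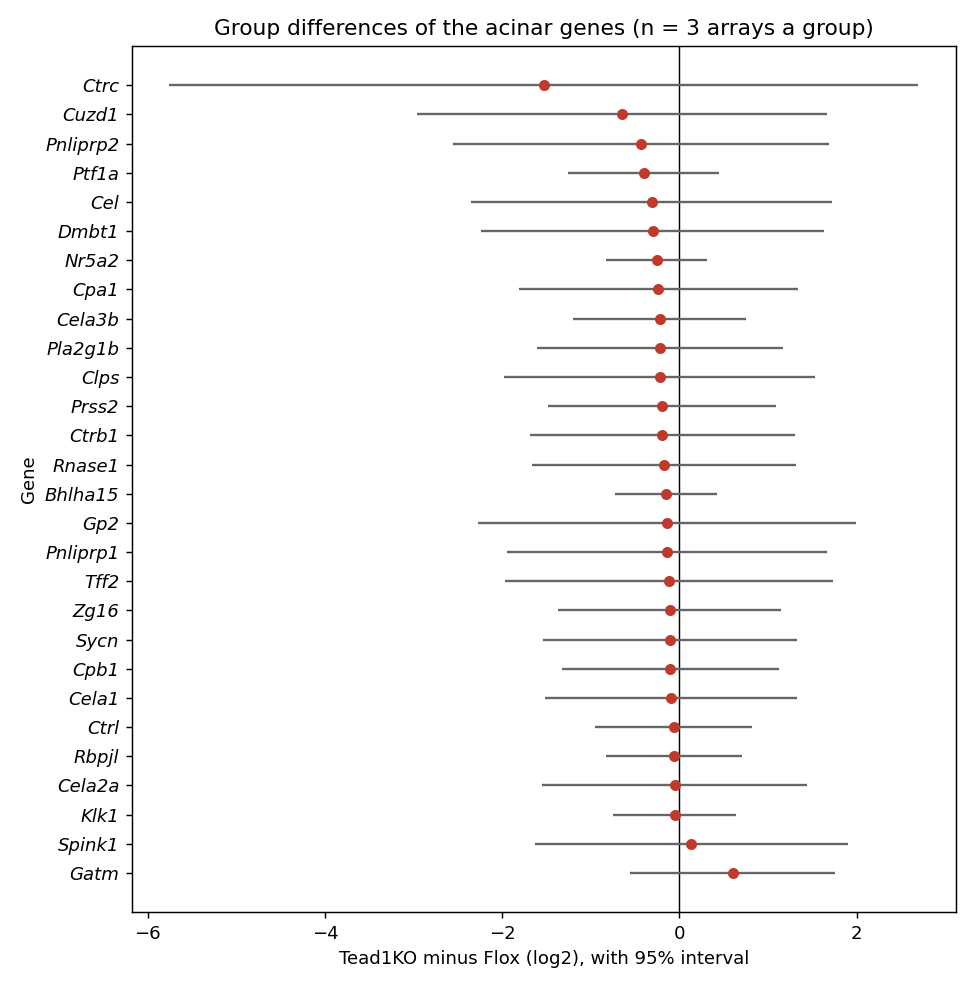
Tead1KO minus Flox difference of each acinar gene (log2, x axis; point) with its 95% interval from limma (line), n = 3 arrays a group. All 28 intervals include 0, 26 points lie below 0, and the widest interval is that of Ctrc.

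With the mean of the acinar genes on each array as a covariate, 51 of the genes outside the list were called between Tead1KO and Flox, against 94 without it, and 48 genes were called both ways. The covariate also takes away a residual degree of freedom, and its part in the lower count was not tested.

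No gene was near the ceiling by the limit used, a mean within 1 log2 unit of the mean of the array maxima (15.69). The brightest, Ctrl, lay 1.34 below it, and the highest single value was 14.86. Within 2 units lay 3 genes, Ctrl, Cela3b and Ctrb1. Just outside that limit were Cpb1, with a mean of 13.65, and Prss2, with 13.62.

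The range was smaller for the brightest genes. It was 1.27 for Ctrl and 1.45 for Cela3b, while the 10 acinar genes with a mean from 13 to 14 had a median range of 2.16 and the 10 from 8 to 11 had one of 2.96. All genes showed a like decline, with medians of 0.30 from 14 to 15, 0.41 from 13 to 14 and 0.69 from 8 to 11. At each of these signals the acinar genes had the larger median range.

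**Figure D5:**
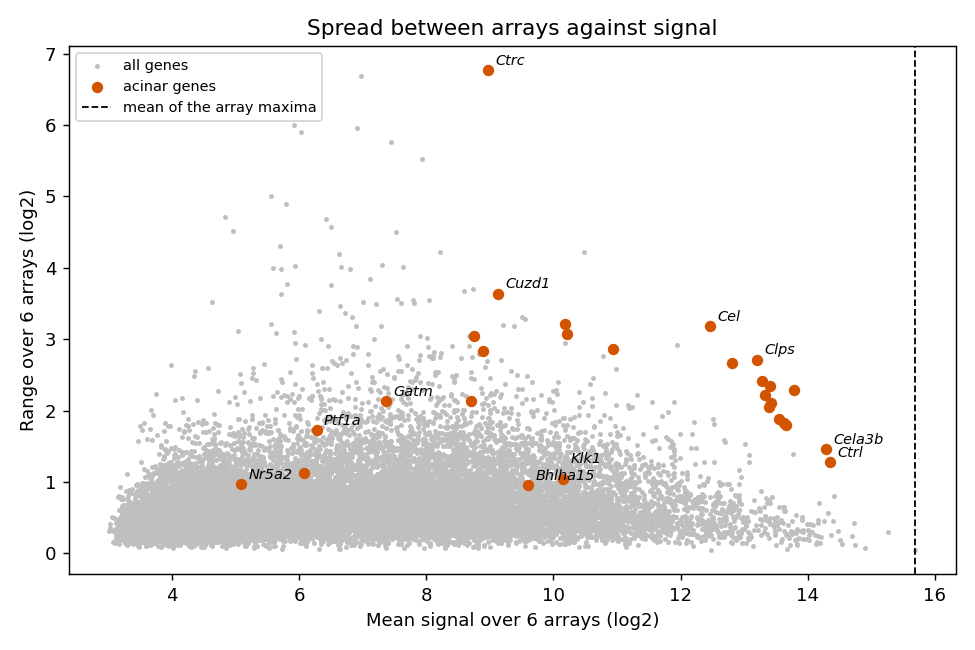
Range over the 6 arrays (log2, y axis) against mean signal (log2, x axis) for all genes (grey) and the acinar genes (orange), with the mean of the array maxima as a dashed line. Most bright acinar genes lie above the other genes of like signal, and Ctrl and Cela3b, at 14.3 on the x axis, have ranges of 1.27 and 1.45, below the median of 2.16 for acinar genes between 13 and 14.

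Dimmer probe sets of the same transcript often showed more spread. Cela3b ranged over 1.45 at its brightest probe set and 2.46 at its dimmest, and Prss2 over 1.82 and 2.94. Zg16 ranged over 1.88 at the brightest and 2.83 at the next. Clps did not show this, with 2.71 and 2.66. Among the 5 acinar genes above 13 with a further probe set above background, the second probe set had the larger range in 4, as in 67.9% of 84 other such genes. Klk1 depended most on the probe set, with a range of 1.04 at its brightest and 3.13 at the next.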

How the data were processed

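Gene expression was measured in 6 islet samples with an Affymetrix mouse expression array. The table the authors deposited holds a log2 signal per probe set, and the submitters' processing notes name Affymetrix Expression Console as the tool. No version, summarisation, background or normalization method is stated in the sources used. That the scale is log2 follows from the span of the values, 2.75 to 15.71. Of 45101 probe sets, 64 controls were left out, 34945 had 1 gene symbol in the platform annotation, 932 had several and 9160 were unnamed here. For each of 18193 genes the probe set with the highest mean was used, with no filter, pseudocount or further normalization. Groups were compared with limma 3.58.1 in R 4.3.3 (lmFit, eBayes with trend, no covariate, Benjamini-Hochberg over all genes), checked on simulated data. The simulated noise was independent between genes, so the check did not cover genes that move together on the arrays. The number of arrays limits the precision. Background was the range of 27 probe sets for bacterial transcripts not spiked in, as their low signals show, and 18 probe sets read the hybridization controls.

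The members and all gene lists were chosen with earlier results of these data known. Values on every array were given for the 2 brightest genes of each role and the 6 with the largest range; of other lists up to 2 genes with the smallest p were named, and genes beyond this were chosen after their values were seen. Alternatives were other normalizations, variance priors, probe set choices, covariates, a replicate block and each array left out.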

Additional observations from a re-analysis of the deposited data

How the results depend on the processing

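No acinar gene was called under any alternative tried, with all single-symbol probe sets tested separately included. Of 210 alternative values for the 14 genes given in full, 45 had the opposite sign and 165 kept it, and all stayed on the same side of the threshold. With the hybridization controls as a covariate the difference was 0.29 for Ctrl, 0.16 for Cela3b, 0.71 for Clps, 0.64 for Pnliprp1, 0.46 for Zg16, 0.39 for Rnase1, 0.49 for Ctrc, 0.46 for Cuzd1, 0.87 for Gp2, 0.56 for Cel and 0.67 for Pnliprp2. The median difference of the acinar genes was -0.20 with median centring and -0.087 with quantile normalization, and took the opposite sign with the control covariate, 0.45, and without Tead1KO replicate 1 or Flox replicate 2 or 3. Quantile normalization gave 0.015 for Ctrl and 0.0093 for Gp2. Zg16 was 0.012 with a gene's probe sets averaged and 0.29 with only the probe sets whose suffix marks neither shared nor cross-hybridizing probes. When each array was left out in turn, the difference ran from -0.46 to 0.26 for Ctrl, -0.64 to 0.17 for Cela3b, -1.04 to 0.30 for Clps, -0.93 to 0.56 for Pnliprp1, -0.70 to 0.31 for Zg16, -0.88 to 0.36 for Rnase1, -0.28 to 0.10 for Bhlha15, -1.74 to 0.080 for Cuzd1, -1.04 to 0.63 for Gp2, -1.27 to 0.39 for Cel, -1.40 to 0.22 for Pnliprp2 and -0.72 to 0.71 for Spink1, while Ctrc (-3.63 to -0.21) and Ptf1a (-0.67 to -0.018) stayed below 0. The causes were not tested. The count of all genes called was 94, and 152 with quantile normalization, 242 with the control covariate, 51 (outside the acinar list) with the mean acinar signal as a covariate and 12 to 303 when an array was left out. It was 97 with the replicate block, which changed no call of an acinar gene. Whether the replicate numbers pair the samples is not known. Deviations from the group means correlated by 0.056, 0.30 and -0.17 across genes for replicates 1, 2 and 3. Tead1KO replicates 1 and 2, but not 3, correlated best with the Flox array of the same number. With 3 arrays a group, these values cannot settle whether the samples were paired. Near-ceiling genes numbered 3 within 2 log2 units, against 0 within 1. The range of the acinar level over the arrays was 1.95 to 2.33 under the alternatives. With 3 arrays a group, differences under a doubling could not be resolved for most of these genes.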

Other observations

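The acinar genes were not the only transcripts with a wide spread within a group. Among the 20 genes with the largest range over the 6 arrays, 13 were highest on Tead1KO replicate 1, the array with the lowest acinar level of the Tead1KO group. The genes named here were chosen after their values were seen, and no gene list was tested for them. Apoa4, an apolipoprotein of gut and liver, read 11.66, 8.87 and 4.97 on the Tead1KO arrays, against 5.13, 5.97 and 5.21 on the Flox arrays, in replicate order (log2 difference 3.06, SE 1.39, limma adjusted p = 0.687). Fabp2, the intestinal fatty acid binding protein, read 9.74, 6.28 and 3.74 in Tead1KO, against 4.31, 6.49 and 4.96 in Flox (difference 1.34, adjusted p = 0.808). Lct, the lactase of the small intestine, read 8.35, 4.85 and 4.40 in Tead1KO, against 4.08, 4.22 and 3.83 in Flox, and so lay above background on Tead1KO replicates 1 and 2 but on none of the other 4 arrays. Alpi, the intestinal alkaline phosphatase, read 9.52, 6.98 and 4.94 in Tead1KO, against 5.57, 6.74 and 5.28 in Flox. A low acinar level went with a high signal of these genes on Tead1KO replicate 1 and not on Flox replicate 1. Tead1KO replicate 2, with a high acinar level of 0.82, also read Apoa4, Lct and Alpi, but not Fabp2, above every Flox array.

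Ighm, an immunoglobulin heavy chain, read 6.98, 7.13 and 6.70 in Tead1KO, against 6.34, 7.16 and 10.85 in Flox, and the B cell attractant Cxcl13 read 5.88, 5.93 and 5.63 in Tead1KO, against 6.23, 7.52 and 9.61 in Flox. Both were highest on Flox replicate 3, which also had the highest acinar level. Neither passed the test (adjusted p = 0.786 and 0.541). Igha, another immunoglobulin heavy chain, did not follow them. It read 10.29, 7.38 and 8.01 in Tead1KO, against 7.05, 6.27 and 6.82 in Flox, and was highest on Tead1KO replicate 1, an array with a low acinar level. Cap1 split the arrays as Ctrc did, with 6.06, 10.74 and 5.21 in Tead1KO, against 9.42, 6.32 and 9.80 in Flox.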
